A study of Mus musculus with 6 samples.

Results

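Iron handling was followed through 10 genes of a gene expression table of mouse liver tumors, taken by symbol from the 34745 genes listed. The hepcidin axis was represented by Hamp, Hamp2, Bmp6, Id1 and Tfr2, transport and export by Trf, Tfrc and Slc40a1, and storage by Fth1 and Ftl1. All 10 genes passed the filter on low counts that left 13892 genes for testing, and the lowest count of any of them in any tumor was 23. RNA-seq had been run on 3 tumors of Prmt3f/f mice (replicates 7, 66 and 71) and 3 tumors of Prmt3LKO mice (replicates 92, 93 and 94), to ask what loss of the arginine methyltransferase PRMT3 from hepatocytes changes in tumors. All mice were 26 weeks old and had received DEN, a liver carcinogen, at 25 mg/kg when they were 2 weeks old, and then 10% CCl4, which damages hepatocytes, at 0.5 ml/kg from 6 weeks. Prmt3f/f mice carry loxP sites in Prmt3 and are named WT in the genotype labels. Prmt3LKO mice carry Alb-Cre as well, which cuts these sites in cells that express albumin. Cells of a tumor that never expressed albumin, such as endothelial and immune cells, should keep the gene, which these bulk samples do not measure. The labels do not say whether each tumor came from a separate mouse, so the p-values measure the spread between these samples.

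Hepcidin is the peptide hormone with which the liver sets the iron content of the body. It binds ferroportin, the only known iron exporter of mammalian cells, and has it degraded, so that less iron leaves enterocytes, macrophages and hepatocytes. Endothelial cells of the liver release BMP6 when iron is high, and hepatocytes answer through SMAD proteins by transcribing Hamp, while IL-6 acts on the same promoter through STAT3. Inside cells, iron regulatory proteins bind stem-loops in mRNAs when iron is low, which stabilizes the transferrin receptor mRNA and blocks translation of the ferritin and ferroportin mRNAs, so that ferritin can change without a change of its mRNA.

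Between 18440244 and 27976598 reads were counted per tumor. Prmt3 itself was at 6.60 to 10.2 CPM (reads scaled by library size) in Prmt3f/f tumors and at 2.03 to 3.82 in Prmt3LKO tumors (log2 fold change −1.55, adjusted p = 0.592 by the quasi-likelihood test of edgeR, 0.0035 by DESeq2 and 0.00735 by the edgeR exact test). No gene of the table passed an adjusted p of 0.05 with a fold change of 2 in this test, 912 genes (6.56%) had an unadjusted p under 0.05, and DESeq2 called 44 genes lower and 10 higher in Prmt3LKO tumors. The tissue label was met, as Alb was at 108120 to 164589 CPM and all 10 hepatocyte markers were tested. The markers Kap, Slc34a1 and Umod, which are genes of the kidney, were also present, with a sum of 2.67 to 3.73 CPM in Prmt3f/f tumors and of 7.73 to 11.5 CPM in Prmt3LKO tumors, and their part in the values below was not tested.

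None of the 10 iron handling genes passed the test for a difference between the genotypes. With the quasi-likelihood test of edgeR and Benjamini-Hochberg adjustment over all genes tested, 0 were past the limits in either direction, which held for 0% of all genes tested. Their adjusted p ran from 0.774 for Hamp2 to 0.984 for Fth1. At an unadjusted p under 0.05, 0 of 10 were lower, beside 4.37% of all genes tested, and 0 of 10 were higher, beside 2.20%. Bmp6 was the 1 gene whose tumors did not overlap between genotypes, and it was lower in Prmt3LKO tumors, as 6.59% of all genes tested were. None was higher in all Prmt3LKO tumors than in all Prmt3f/f tumors, as 5.58% of all genes tested were. The estimate was higher in Prmt3LKO tumors for 8 genes and lower for 2, and the median log2 fold change of the 10 was 0.21, beside 0.00037 over all genes tested. Over the 6 tumors, the highest exceeded the lowest 8.95-fold for Hamp2, 4.05-fold for Hamp, 2.71-fold for Id1 and 2.59-fold for Tfrc, where the median over all genes tested was 1.71-fold. Within a genotype these spreads reached 4.89-fold for Hamp2, in Prmt3LKO tumors, and in Prmt3f/f tumors 4.05-fold for Hamp, 2.36-fold for Id1 and 2.59-fold for Tfrc.

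**Figure D1:**
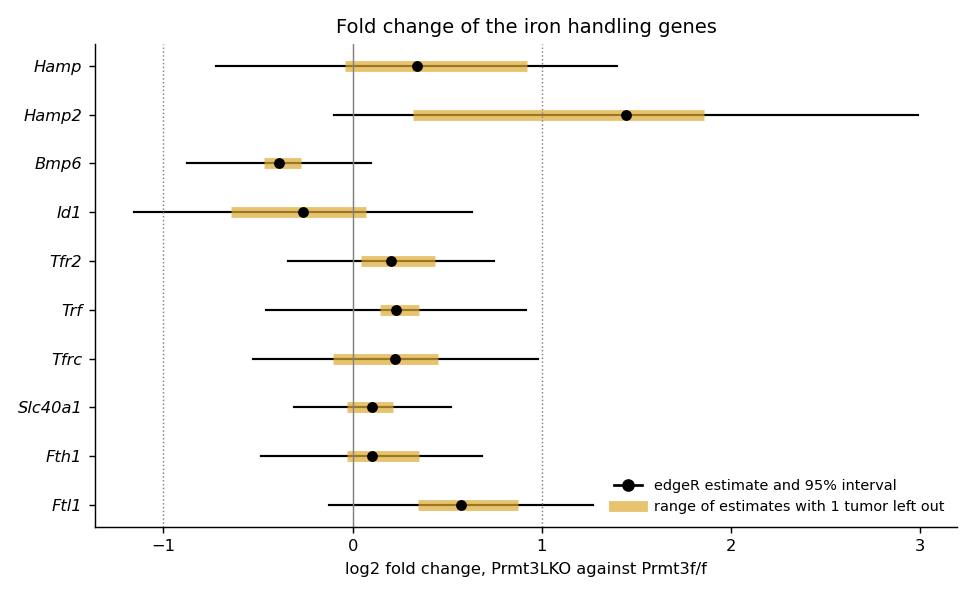
log2 fold change of each of the 10 genes in Prmt3LKO against Prmt3f/f tumors, with points and black lines for the edgeR estimate and its 95% interval, broad bars for the range of estimates with 1 tumor left out, and dotted lines at a 2-fold change. Every interval includes 0, and the estimates run from −0.39 for Bmp6 to 1.45 for Hamp2.

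The 2 hepcidin genes of the mouse lie side by side on chromosome 7 and carry nearly the same promoter. Shown here are the 150 bases upstream of each start, taken from RefSeq on GRCm38.p6, because they hold the elements through which BMP signaling and IL-6 are known to reach Hamp. The first capitals mark the BMP element and the second capitals the STAT3 site. Both windows are on the minus strand, at chr7:30944030-30944179 for Hamp and at chr7:30924182-30924331 for Hamp2. The Hamp2 window lies inside the locus given for that gene with the counts, chr7:30922389-30924681, which begins upstream of the RefSeq start. For Hamp2 the bases shown are therefore upstream of the RefSeq start only.
Hamp: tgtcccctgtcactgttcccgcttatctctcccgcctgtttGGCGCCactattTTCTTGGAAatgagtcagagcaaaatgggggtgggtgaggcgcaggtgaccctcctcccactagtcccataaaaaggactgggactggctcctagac
Hamp2: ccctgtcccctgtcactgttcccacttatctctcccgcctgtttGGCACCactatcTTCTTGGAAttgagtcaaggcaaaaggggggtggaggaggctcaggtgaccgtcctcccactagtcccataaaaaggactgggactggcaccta

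Over the 250 bases before each RefSeq start, from which all distances here are counted, 227 of 247 aligned bases (91.9%) were the same. GGCGCC begins 109 bases before the start in Hamp, and the matching 6 bases of Hamp2 differ from it by G4A, counted from 1 at the 5′ end of the element. The STAT3 site is the same in both and begins 97 bases before the start in Hamp and 94 bases before it in Hamp2. Searched on both strands, GGCGCC was found in 11.9% and TTCNNNGAA in 8.3% of the 32851 mouse promoter windows of the same length, and 212 windows (0.65%) held both, that of Hamp among them. Of the other members, Tfrc has 2 windows and held GGCGCC in that at chr16:32608646-32608945 only, 89 bases before the start. Bmp6 held the E box CACGTG at 127 bases, a motif found in 7.2% of windows. Windows were matched for 7 of the 10 genes, not for Trf, Slc40a1 and Id1. These genes had 11 windows in all, with 3 for Tfr2 and 2 for Fth1, and a gene with several windows can match more often. A match is a run of letters and does not show binding.

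Hamp (ENSMUSG00000050440, chr7:30942368-30944032, minus strand) encodes hepcidin itself. Its level was 14.2, 57.3 and 31.6 CPM in Prmt3f/f replicates 7, 66 and 71, and 52.0, 30.8 and 47.7 CPM in Prmt3LKO replicates 92, 93 and 94. The lowest and the highest tumor were both Prmt3f/f, and the 3 Prmt3LKO tumors lay between them. The means were 34.4 ± 21.7 (SD, n = 3) and 43.5 ± 11.2 CPM (SD, n = 3), with a log2 fold change of 0.34 (SE 0.45, 95% interval −0.72 to 1.40) and an adjusted p of 0.959 by edgeR. An exact two-sided permutation test on log2 CPM gave p = 0.7, where 3 tumors against 3 allow no p under 0.1. Without Prmt3f/f replicate 7 the estimate turned to −0.04, and without replicate 66 it rose to 0.92. Leaving out any other single tumor kept it above 0. Of all genes tested, 10.6% had a wider spread over the 6 tumors. As these are bulk samples, fewer cells of a type and less RNA per cell cannot be told apart.

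Hamp2 (ENSMUSG00000056978, chr7:30922389-30924681, minus strand) encodes a second hepcidin-like peptide, which has not been found to regulate iron as hepcidin does. It was counted in only 23, 31 and 70 reads in Prmt3f/f replicates 7, 66 and 71, and in 34, 49 and 189 reads in Prmt3LKO replicates 92, 93 and 94. This gave 1.06, 1.45 and 2.46 CPM against 1.94, 2.21 and 9.49 CPM. Prmt3LKO replicate 94 stood far above the other 5 tumors, which lay within the range of 1.06 to 2.46 CPM. The log2 fold change of 1.45 (SE 0.66, 95% interval −0.10 to 2.99, adjusted p = 0.774 by edgeR) was the largest of the 10 genes, and without this tumor it was 0.32. The exact permutation test gave p = 0.3. Only 3.13% of all genes tested had a wider spread over the tumors.

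Reads of Hamp and Hamp2 can be hard to assign, as the genes are near copies and the way the authors counted reads that fit both is not given in the sources used here. The gene RP24-63G4.13 overlaps both on the opposite strand and had 0 reads. As a share of the reads of both genes, Hamp2 had 6.97% (95% Wilson interval 4.69 to 10.2), 2.46% (1.74 to 3.47) and 7.22% (5.75 to 9.02) in Prmt3f/f replicates 7, 66 and 71. In Prmt3LKO replicates 92, 93 and 94 it had 3.60% (2.59 to 4.99), 6.69% (5.10 to 8.74) and 16.6% (14.5 to 18.9). The interval of replicate 94 lay above those of the other 5 tumors, and these intervals cover counting error only. Mean shares were 5.55% ± 2.68 (SD, n = 3) and 8.96% ± 6.79 (SD, n = 3), exact permutation p = 0.6, and without replicate 94 the difference turned to −0.40 percentage points. The sum of both genes was 15.2, 58.8 and 34.1 CPM in Prmt3f/f tumors and 53.9, 33.0 and 57.2 CPM in Prmt3LKO tumors (exact permutation p = 0.7).

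**Figure D2:**
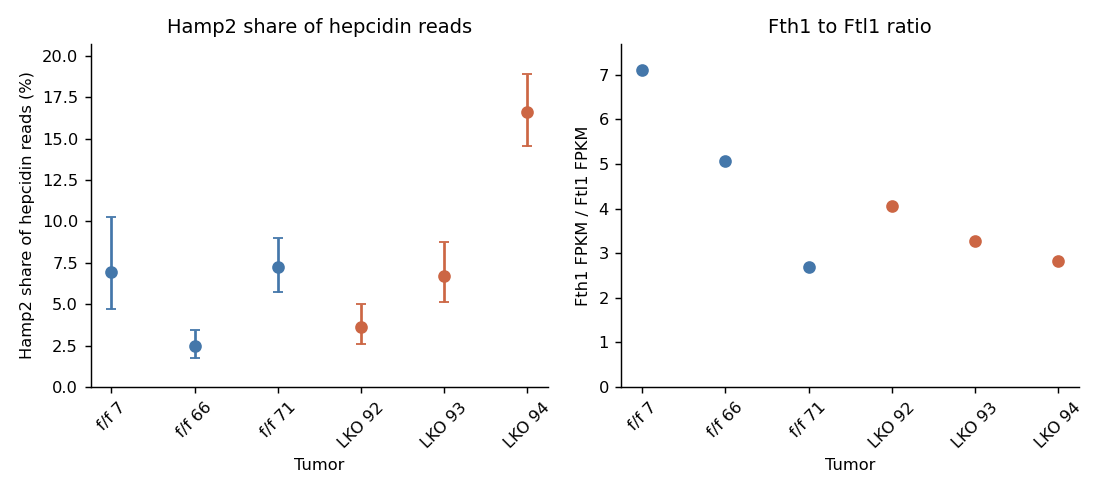
Left, Hamp2 reads as a percent of Hamp and Hamp2 reads in each tumor with 95% Wilson intervals, and right, ratio of Fth1 to Ftl1 FPKM in each tumor. Prmt3LKO replicate 94 has the highest Hamp2 share, 16.6%, and Prmt3f/f replicate 7 the highest ferritin ratio, 7.11.

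Bmp6 (ENSMUSG00000039004, chr13:38345716-38499728, plus strand) encodes the ligand that reports iron to hepatocytes. It was at 5.07, 6.15 and 4.71 CPM in Prmt3f/f replicates 7, 66 and 71, and at 4.28, 3.65 and 4.22 CPM in Prmt3LKO replicates 92, 93 and 94. Each Prmt3LKO tumor lay below each Prmt3f/f tumor. The means of 5.31 ± 0.751 and 4.05 ± 0.348 CPM (SD, n = 3 each) gave a log2 fold change of −0.39 (SE 0.21, 95% interval −0.88 to 0.10, adjusted p = 0.812 by edgeR), and the exact permutation p was 0.1, the smallest possible here. Leaving out any 1 tumor kept the estimate between −0.47 and −0.27. The 11 endothelial markers summed to 505 to 617 CPM in Prmt3f/f and 479 to 579 CPM in Prmt3LKO tumors, with 0 of 11 lower in every Prmt3LKO tumor, and their most abundant members Stab1 and Stab2, both scavenger receptors, had overlapping levels. By contrast, the 12 Kupffer cell and macrophage markers summed to 714 to 853 CPM against 495 to 710 CPM, with 12 of 12 estimates lower, 5 of 12 at an unadjusted p under 0.05 (4.37% of all genes tested) and 4 of 12 below all Prmt3f/f tumors (6.59%), and none was at 0. Csf1r, the receptor for CSF1, was at 109, 143 and 124 CPM against 101, 73.2 and 97.2 CPM, while Cd5l, a secreted protein of Kupffer cells, was at 186, 135 and 172 against 167, 123 and 173 CPM. The part of these cells in the level of Bmp6 was not tested.

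Id1 (ENSMUSG00000042745, chr2:152736251-152737410, plus strand) encodes an inhibitor of basic helix-loop-helix factors and is a target of SMAD signaling that rises with BMP6 in liver. Its level was 20.9, 29.8 and 12.6 CPM in Prmt3f/f replicates 7, 66 and 71 and 16.1, 25.7 and 11.0 CPM in Prmt3LKO replicates 92, 93 and 94. The groups covered nearly the same range, with the lowest tumors being replicates 71 and 94. The log2 fold change was −0.26 (SE 0.38, 95% interval −1.15 to 0.63, adjusted p = 0.967 by edgeR), and it turned to 0.07 without Prmt3f/f replicate 66.

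Tfr2 (ENSMUSG00000029716, chr5:137569840-137587481, plus strand) encodes the transferrin receptor through which hepatocytes sense loaded transferrin. Its level was 158, 189 and 264 CPM in Prmt3f/f replicates 7, 66 and 71 and 274, 196 and 232 CPM in Prmt3LKO replicates 92, 93 and 94. The 2 lowest tumors were Prmt3f/f, and replicate 71 lay among the Prmt3LKO tumors. On the log2 scale Prmt3LKO tumors were higher by 0.20 (SE 0.23, 95% interval −0.34 to 0.75, adjusted p = 0.948 by edgeR), with 0.04 when replicate 7 and 0.44 when replicate 71 was left out.

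Trf (ENSMUSG00000032554, chr9:103204001-103230444, minus strand) encodes transferrin, the iron carrier of plasma that hepatocytes secrete. Among the 10 genes it had by far the most reads, at 23526, 28514 and 24855 CPM in Prmt3f/f replicates 7, 66 and 71 and at 33558, 31792 and 24773 CPM in Prmt3LKO replicates 92, 93 and 94. Replicates 92 and 93 lay above the others, and replicate 94 lay within the range of the Prmt3f/f tumors. The estimate on the log2 scale was 0.23 (SE 0.30, 95% interval −0.46 to 0.92, adjusted p = 0.957 by edgeR), and 0.35 without Prmt3LKO replicate 94. The predicted gene Gm20425 overlaps Trf on the same strand, but its 574 to 1216 reads came to only 0.113% to 0.219% of those of Trf.

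The mRNAs of Tfrc, Slc40a1, Fth1 and Ftl1 each hold stem-loops of the kind that iron regulatory proteins bind. They are shown because they place these genes under control by cell iron in opposite ways, with a stem-loop in the 5′ UTR of the ferroportin and ferritin mRNAs and several in the 3′ UTR of the transferrin receptor mRNA. Capitals mark the loop, and the 5 bases on either side of it pair. Positions are on GRCm38 and regions follow GENCODE M21. The loop of Slc40a1 is at chr1:45925466-45925491 (minus strand), that of Fth1 at chr19:9982734-9982759 (plus strand) and that of Ftl1 at chr7:45459780-45459805 (minus strand). The 4 loops of Tfrc, a to d, are at chr16:32631221-32631246, chr16:32631600-32631625, chr16:32631665-32631690 and chr16:32631712-32631737 (plus strand).
Slc40a1: acttcagctaCAGTGTtagctaagtt
Fth1: cctgcttcaaCAGTGCttgaacggaa
Ftl1: cttgcttcaaCAGTGTttgaacggaa
Tfrc a: ttatcggaagCAGTGCcttccataat
Tfrc b: ttatcgggagCAGTGTcttccataat
Tfrc c: atatcggagaCAGTGAtctccatatg
Tfrc d: ttatcgggaaCAGTGTttcccataat

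The search asked, on the sense strand, for C, 5 bases, CAGTG with any base but G after it, and 5 bases that pair with the first 5, G with T allowed. It matched 5′ UTRs of 23 of 20899 genes (0.11%) and 3′ UTRs of 100 of 21022 genes (0.48%). None of the other members had a match in its UTRs, and of the genes in the 6 other iron lists described below Bola3 alone had one. Epas1, named below as a target of an iron regulatory protein, had no match, so the pattern does not find every target. Genes of the marker lists, Alas2 among them, were not looked up.

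Tfrc (ENSMUSG00000022797, chr16:32608920-32632794, plus strand) encodes the transferrin receptor that takes up iron in most cells. It was at 21.4, 55.4 and 52.1 CPM in Prmt3f/f replicates 7, 66 and 71 and at 52.0, 47.6 and 51.3 CPM in Prmt3LKO replicates 92, 93 and 94. Replicate 7 had less than any other tumor, and the other 5 lay within 47.6 to 55.4 CPM. Between genotypes the log2 fold change was 0.23 (SE 0.32, 95% interval −0.53 to 0.98, adjusted p = 0.964 by edgeR), and without replicate 7 it was −0.11.

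Slc40a1 (ENSMUSG00000025993, chr1:45908068-45926523, minus strand) encodes ferroportin, the target of hepcidin. Its level was among the steadiest, at 99.5, 86.1 and 112 CPM in Prmt3f/f replicates 7, 66 and 71 and at 104, 90.5 and 126 CPM in Prmt3LKO replicates 92, 93 and 94. The groups overlapped over most of their range. A log2 fold change of 0.10 (SE 0.18, 95% interval −0.31 to 0.52, adjusted p = 0.968 by edgeR) was found, which became −0.03 without Prmt3LKO replicate 94. Ferroportin is also a protein of macrophages, whose markers had lower estimates, as given above, with none past the limits. The part of these cells in the level of Slc40a1 was not tested.

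Fth1 (ENSMUSG00000024661, chr19:9982703-9985092, plus strand) encodes the heavy subunit of ferritin, which oxidizes iron for storage. It was at 2064, 1336 and 1259 CPM in Prmt3f/f replicates 7, 66 and 71 and at 1631, 1516 and 1850 CPM in Prmt3LKO replicates 92, 93 and 94. Replicate 7 was the highest tumor and the other two Prmt3f/f tumors were the lowest. The log2 fold change was 0.10 (SE 0.25, 95% interval −0.48 to 0.68, adjusted p = 0.984 by edgeR), and it was −0.03 without replicate 71 and 0.35 without replicate 7.

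Ftl1 (ENSMUSG00000050708, chr7:45457944-45459884, minus strand) encodes the light subunit, which helps to form the iron core. It was at 948, 860 and 1528 CPM in Prmt3f/f replicates 7, 66 and 71 and at 1312, 1513 and 2138 CPM in Prmt3LKO replicates 92, 93 and 94. The 2 lowest tumors were Prmt3f/f and the highest was Prmt3LKO, while replicate 71 lay above replicates 92 and 93. The log2 fold change was 0.57 (SE 0.30, 95% interval −0.13 to 1.27, adjusted p = 0.802 by edgeR, exact permutation p = 0.3), and leaving out any 1 tumor kept the estimate between 0.35 and 0.87. Ferritin copies in the table had few reads, with 2 to 5 for Ftl2-ps, 0 to 1 for Fth-ps2 and 0 for mitochondrial ferritin, Ftmt.

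**Figure D3:**
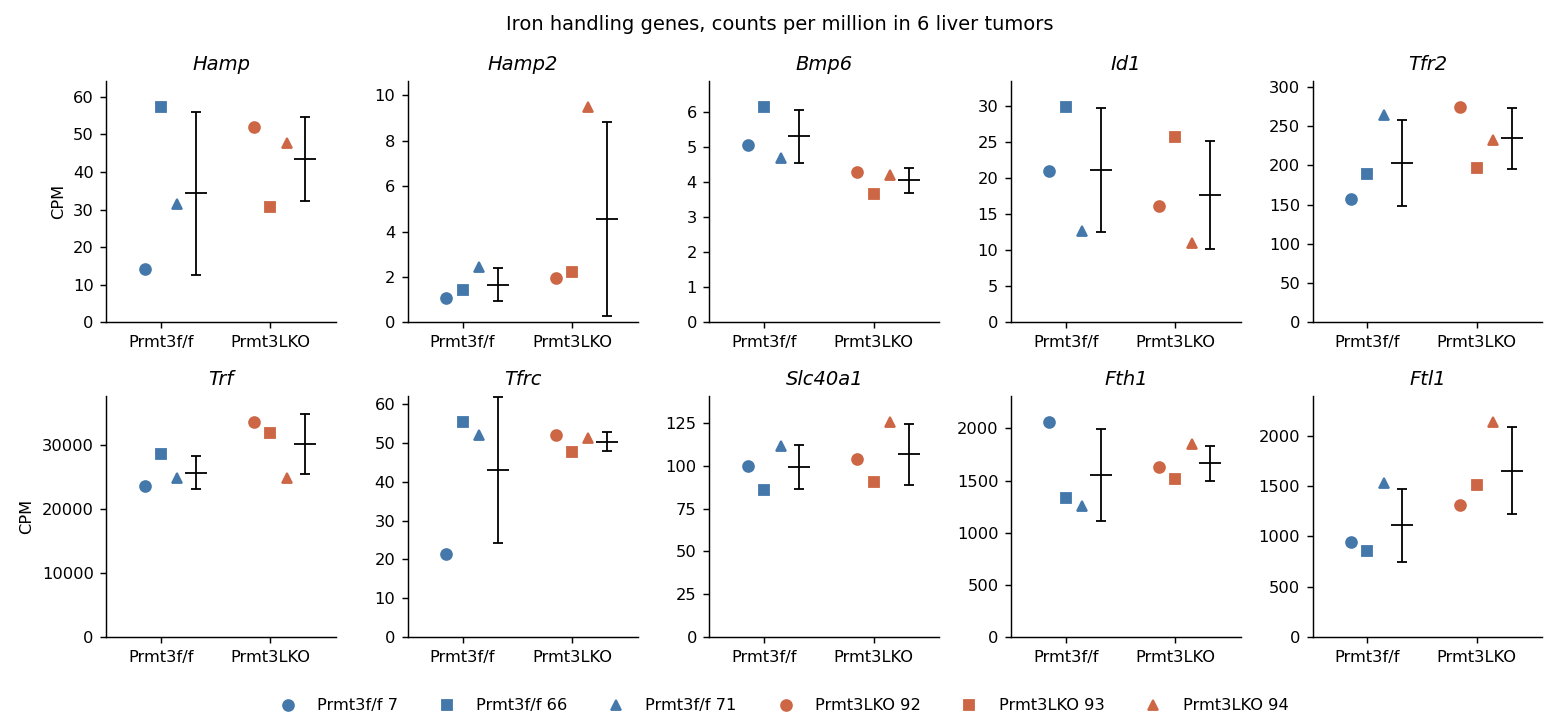
CPM of the 10 genes in each tumor, with 1 panel a gene and an axis from 0, where colors give the genotype, symbols the replicate, and black lines the mean ± SD of 3 tumors. Bmp6 is the 1 panel in which the groups do not overlap, Prmt3f/f replicate 7 is the lowest tumor for Hamp (14.2 CPM) and Tfrc (21.4 CPM), and Prmt3LKO replicate 94 is the highest for Hamp2 (9.49 CPM) and Ftl1 (2138 CPM).

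Levels were compared between genes by FPKM, which divides reads by a length the authors set for each gene. Trf led with 4820 to 6582 FPKM over the 6 tumors, followed by Fth1 with 1479 to 2456, Ftl1 with 297 to 747, Hamp with 35.6 to 137 and Tfr2 with 18.4 to 30.4. Each of these ranges lay above the next, and that of Tfr2 above Slc40a1 with 7.82 to 11.5. From Slc40a1 down, neighbors in the order overlapped, with Id1 at 5.19 to 13.9, Tfrc at 2.29 to 5.62, Hamp2 at 1.39 to 12.0 and Bmp6 at 1.58 to 2.49 FPKM.

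The lengths behind these values limit the order. For Ftl1 the count and the FPKM imply a length of 2826 bases where the locus spans 1941, and for Id1 2094 where it spans 1160. When reads were divided instead by the bases that exons cover in GENCODE M21, a choice made after the data were seen, Trf stayed first with 7302 to 9972 on the scale of FPKM, but Ftl1 came next with 627 to 1575 and then Fth1 with 369 to 613. Hamp (35.6 to 137) and Tfr2 (37.4 to 61.9) then overlapped, Id1 (9.36 to 25.1) came before Slc40a1 (9.35 to 13.8), and Bmp6 stayed last with 0.975 to 1.54. The exon bases in turn exceed the locus for Fth1, at 3469 where it spans 2390. For the same gene the count and the FPKM imply a length of 866 bases. No order of the ferritin subunits is therefore read from these files.

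By FPKM the ratio of Fth1 to Ftl1 was 7.11, 5.07 and 2.69 in Prmt3f/f replicates 7, 66 and 71 and 4.06, 3.27 and 2.82 in Prmt3LKO replicates 92, 93 and 94. In reads the ratio was 2.18, 1.55 and 0.824 against 1.24, 1.00235 and 0.865, so Ftl1 had more reads in replicates 71 and 94. Over exon bases, which for Fth1 exceed the locus, it was below 1 in every tumor, from 0.318 to 0.841. The difference between genotypes does not depend on the length, and the log2 ratio differed by −0.46 (exact permutation p = 0.4), with −0.14 when Prmt3f/f replicate 7 and −0.84 when replicate 71 was left out.

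**Figure D4:**
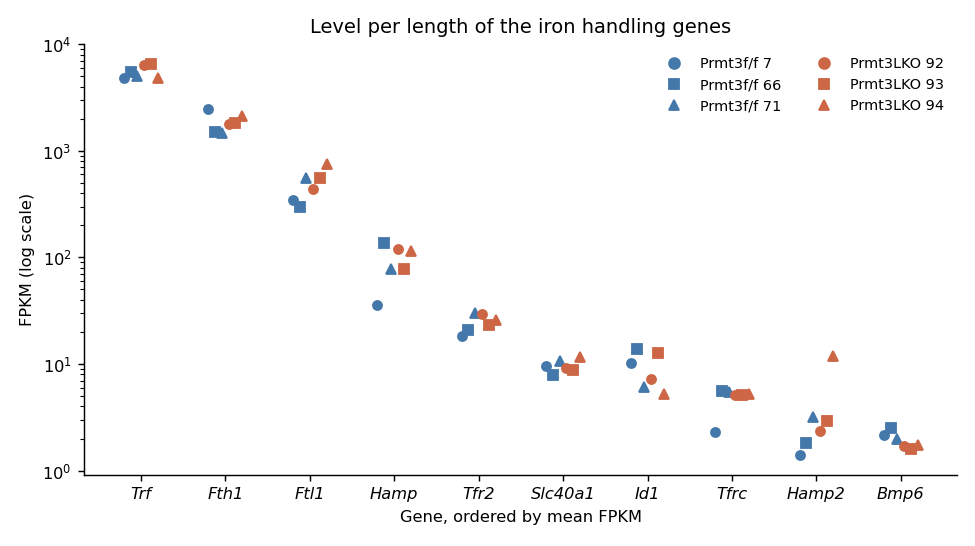
FPKM as deposited of each gene in each of the 6 tumors on a log axis, in order of the mean. The ranges of the first 5 genes, Trf to Tfr2, do not overlap with that of the next gene, and from Slc40a1 to Bmp6 neighbors overlap.

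Whether the genes moved together over the 6 tumors was examined for 8 pairs within the axis and between storage and uptake. The strongest relation was that of Tfrc and Fth1, with Pearson's r of −0.71 (exact permutation p = 0.0542, adjusted over 8 pairs 0.433) and Spearman's rho of −0.77 (exact permutation p = 0.103, adjusted 0.822), and r was −0.58 without Prmt3f/f replicate 7 and Prmt3LKO replicate 93, the tumors farthest from the median of Tfrc. For Bmp6 and Hamp r was 0.06 (exact permutation p = 0.9, adjusted 0.911) and rho 0.26 (exact permutation p = 0.658, adjusted 1), and for Bmp6 and Id1 r was 0.34 (exact permutation p = 0.514, adjusted 0.822) and rho 0.37 (exact permutation p = 0.497, adjusted 0.994). Tfr2 and Hamp had r of 0.59 (exact permutation p = 0.232, adjusted 0.822) and rho of 0.37 (exact permutation p = 0.497, adjusted 0.994), and r became −0.40 without Prmt3f/f replicate 7 and Prmt3LKO replicate 92, so that its sign rests on those tumors. The ferritin subunits Fth1 and Ftl1 had r of 0.06 (exact permutation p = 0.885, adjusted 0.911) and rho of −0.03 (exact permutation p = 1, adjusted 1), but r of 0.93 without Prmt3f/f replicates 7 and 71. For Hamp and Hamp2 r was 0.42 (exact permutation p = 0.342, adjusted 0.822) and rho 0.09 (exact permutation p = 0.919, adjusted 1). Trf and Tfr2 had r of 0.32 (exact permutation p = 0.503, adjusted 0.822) and rho of 0.54 (exact permutation p = 0.297, adjusted 0.994), and Hamp and Id1 r of −0.09 (exact permutation p = 0.911, adjusted 0.911) and rho of 0.09 (exact permutation p = 0.919, adjusted 1). Leaving out the 2 tumors farthest from the median of the first gene gave r of −0.97 for Bmp6 and Hamp, 0.68 for Bmp6 and Id1, 0.36 for Hamp and Hamp2, 0.04 for Trf and Tfr2 and −0.45 for Hamp and Id1. All 8 adjusted p were at least 0.433, and with 6 tumors of 2 genotypes such values describe these libraries.

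Among the 12127 genes compared, the gene whose log2 CPM followed Hamp most closely over the 6 tumors was Usf2, with r = 0.994. Usf2, which encodes a transcription factor that binds E boxes, is the next gene upstream of Hamp on the same strand, with 1215 bases between them. It was at 20.8, 28.4 and 24.1 CPM in Prmt3f/f replicates 7, 66 and 71 and at 27.8, 24.3 and 26.8 CPM in Prmt3LKO replicates 92, 93 and 94. Its spread was only 1.37-fold where that of Hamp was 4.05-fold. Dnajb5, Rab38, Spag1 and Shank2 followed Hamp with r of 0.98 to 0.99. Nearest to Bmp6 were Ccl6 (r = 0.99), Hvcn1, Cd37, Lyl1 and Gtdc1, and nearest to Tfrc were Mgat1 (r = 0.998), Rbfox2, Dhx30 and Lrpap1. Out of so many genes, high values of r over 6 points are common, and they are given as a description.

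The other genes of iron handling were taken from 6 lists with 92 genes, of which 87 were tested. As with the members, 0 passed the limits, and at an unadjusted p under 0.05 there were 1 lower (1.15%) and 1 higher (1.15%), beside 4.37% and 2.20% of all genes tested. The groups did not overlap for 3 lower genes (3.45%), Smad1, Jak2 and Bola1, and for 6 higher genes (6.90%), beside 6.59% and 5.58% of all genes tested. The median log2 fold change of the 87 was 0.02.

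Regulators of hepcidin in the BMP and SMAD branch had 10 of 20 tested estimates on either side and a median log2 fold change of −0.0046. Tmprss6, the protease that cleaves hemojuvelin and so lowers Hamp, was the most abundant, at 329, 354 and 468 CPM in Prmt3f/f replicates 7, 66 and 71 and at 511, 319 and 611 CPM in Prmt3LKO replicates 92, 93 and 94. Its log2 fold change was 0.32 (SE 0.27, adjusted p = 0.916 by edgeR), but 0.11 without replicate 94 and 0.55 without replicate 93. Fgl1, a protein secreted by hepatocytes, was next with 602, 235 and 352 against 279, 330 and 290 CPM. Fam132b, which encodes the erythroid hormone erythroferrone, was not tested because its counts were too low.

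In the IL-6 and STAT3 branch, 6 of 7 tested estimates were lower in Prmt3LKO tumors (median log2 fold change −0.30), and 0 of 7 had an unadjusted p under 0.05. Jak1, a kinase of the IL-6 receptor, was at 161, 168 and 172 against 164, 170 and 139 CPM, and Stat3 at 106, 135 and 142 against 123, 116 and 87.5 CPM. Il6 itself was not tested because of low counts. The 15 acute-phase genes, which share this input, had a median of −0.07. Their most abundant members Fgb and Fga, chains of fibrinogen, were at 5376 to 8117 and 4990 to 6983 CPM in Prmt3f/f tumors and at 5823 to 7163 and 5325 to 7068 CPM in Prmt3LKO tumors. Saa3, a serum amyloid gene of macrophages and other cells, was at 3.14, 65.96 and 15.4 against 0.80, 2.03 and 2.16 CPM (log2 fold change −4.06, SE 1.04, adjusted p = 0.592 by the quasi-likelihood test and 0.0238 by the exact test of edgeR). DESeq2 gave Saa3 an adjusted p of 0.0615 and limma-voom 0.836. Without Prmt3f/f replicate 66 its estimate was −2.47.

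Genes of iron uptake, export and ferritin turnover had 6 lower and 7 higher estimates of 13 tested, with a median of 0.01. Cp, the ferroxidase of plasma, was at 3699, 2475 and 1961 against 2689, 2322 and 1824 CPM, and Lrp1, a receptor that also clears heme bound to hemopexin, at 420, 497 and 562 against 622, 513 and 548 CPM. Among the 4 genes of iron regulatory proteins and their partners, the median was 0.04, and Aco1, which encodes iron regulatory protein 1, was at 163 to 268 CPM in Prmt3f/f and 206 to 273 CPM in Prmt3LKO tumors. Epas1, which encodes the hypoxia factor HIF-2α and is itself a target of that protein, was at 208 to 395 against 217 to 343 CPM. The 19 heme genes had a median of 0.02, with 8 estimates lower and 11 higher. Hpx, the heme carrier hemopexin, was at 4460 to 5489 against 4946 to 6585 CPM, and Hp, the hemoglobin carrier haptoglobin, at 4378 to 5947 against 3640 to 6339 CPM.

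The mitochondrial iron and iron-sulfur list held both genes with an unadjusted p under 0.05, Bola1 and Glrx5. Bola1 encodes a mitochondrial protein that binds the monothiol glutaredoxin GLRX5 in the delivery of iron-sulfur clusters. It was at 11.9, 9.84 and 11.7 CPM in Prmt3f/f replicates 7, 66 and 71 and at 2.69, 2.30 and 1.91 CPM in Prmt3LKO replicates 92, 93 and 94. The lowest Prmt3f/f tumor was far above the highest Prmt3LKO tumor, and the level fell by 2.28 on the log2 scale (SE 0.21, 95% interval −2.77 to −1.80, 4.86-fold), but the adjusted p of 0.0879 by edgeR missed 0.05. DESeq2 gave it an adjusted p of 1.81e-13, the edgeR exact test 1.16e-11 and limma-voom 0.160. The overlapping gene Gm15444 had 0 reads.

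Glrx5 itself was at 40.7, 34.6 and 36.8 CPM in Prmt3f/f replicates 7, 66 and 71 and at 47.8, 45.3 and 78.1 CPM in Prmt3LKO replicates 92, 93 and 94. All Prmt3LKO tumors were above all Prmt3f/f tumors, with replicate 94 far above the other 5. The log2 fold change was 0.61 (SE 0.23, 95% interval 0.09 to 1.14, adjusted p = 0.684 by edgeR), and it was 0.32 without replicate 94. Of the 24 genes in the list 17 had higher and 7 lower estimates, with a median of 0.13. The most abundant, Hspa9, a mitochondrial chaperone for cluster transfer, was at 274, 404 and 409 against 417, 390 and 401 CPM, and Cisd1, an iron-sulfur protein of the outer membrane, at 60.1, 49.1 and 58.8 against 74.0, 51.1 and 83.8 CPM.

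**Figure D5:**
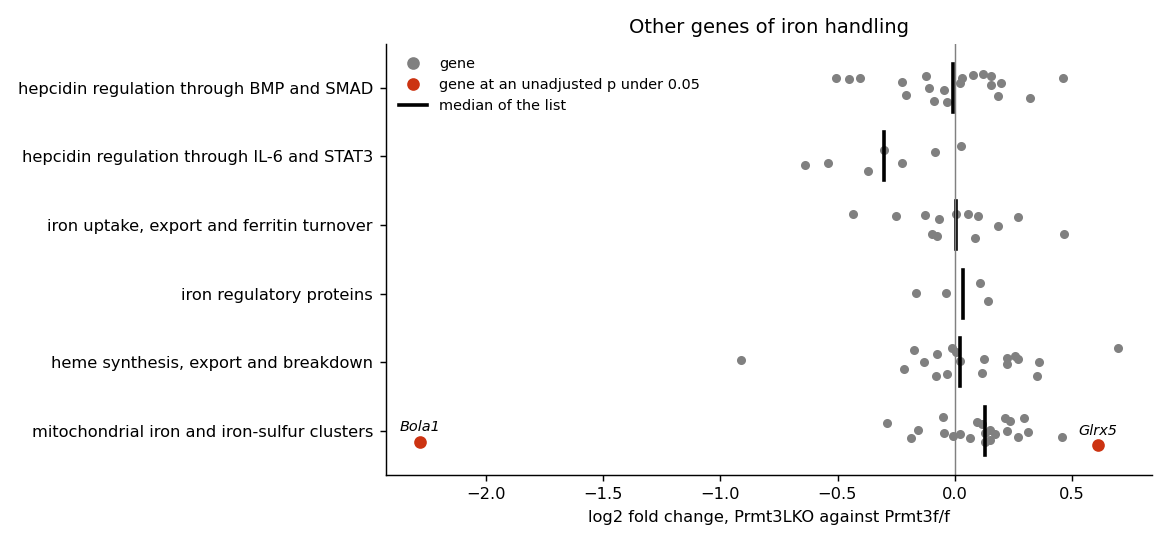
log2 fold change of 87 other genes of iron handling in Prmt3LKO against Prmt3f/f tumors, by list, with a point a gene and a black bar for the median of the list. Bola1 (−2.28) stands apart from all other genes, and Bola1 and Glrx5 (0.61) are the 2 genes with an unadjusted p under 0.05.

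Lists outside the pathway gave the setting of these values. The 10 NRF2 targets, a set that includes genes of oxidative stress defense and shares its regulator with the ferritin genes, had a median log2 fold change of 0.24 with 7 estimates higher and 3 lower, and 0 at an unadjusted p under 0.05. That median was −0.019 without Prmt3f/f replicate 66 and 0.58 without replicate 7. Gstm1, a glutathione transferase, was at 3196, 1560 and 1867 against 3418, 2186 and 2036 CPM, and Gclc, which makes the precursor of glutathione, at 656, 303 and 436 against 573, 535 and 476 CPM. Hepatocyte markers had a median of 0.21, as the members did, with 7 estimates higher and 3 lower. They summed to 155548 to 226945 CPM in Prmt3f/f and 173641 to 190054 CPM in Prmt3LKO tumors, and their part in the levels of the members was not tested. Stellate cell and fibroblast markers had a median of −0.29 (479 to 1064 against 517 to 806 CPM), cholangiocyte markers of −0.64 (346 to 4114 against 219 to 368 CPM, or 36.1 to 59.1 against 27.1 to 34.9 CPM without Spp1, which held most of the sum), lymphocyte markers of −1.06 (26.1 to 29.6 against 8.85 to 19.0 CPM) and 13 cell cycle genes of −0.21, with Pcna at 18.4 to 27.7 against 17.6 to 22.3 CPM and Mki67 at 14.6 to 25.5 against 12.4 to 20.2 CPM. The cell cycle median turned to 0.065 without Prmt3f/f replicate 7.

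Blood is itself a store of iron in heme, and of its 6 tested markers 4 had lower and 2 higher estimates. The globin genes Hba-a1, Hba-a2, Hbb-bs and Hbb-bt each lay lower in every Prmt3LKO tumor than in any Prmt3f/f tumor, with unadjusted p under 0.05, beside 6.59% and 4.37% of all genes tested. Hbb-bs, the most abundant, was at 40.2, 47.4 and 46.0 CPM in Prmt3f/f replicates 7, 66 and 71 and at 16.9, 27.3 and 11.3 CPM in Prmt3LKO replicates 92, 93 and 94 (adjusted p = 0.592 by edgeR). Alas2, the first enzyme of heme synthesis in erythroid cells, was at 13.3, 27.5 and 54.6 against 43.2, 18.2 and 55.8 CPM, and the erythroid factor Klf1 had a log2 fold change of 0.31, while the erythroid genes Slc4a1, Epb42 and Rhag had too few counts to be tested. The part of blood in the levels of the iron handling genes was not tested.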

How the data were processed

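RNA-seq of 3 Prmt3f/f and 3 Prmt3LKO tumors was read from 1 table, which lists counts and FPKM by gene. Per the submitters' processing notes, the authors used bcl2fastq 2.19, HISAT2 2.0.4 and StringTie 1.3.0 with GRCm38. The counting step, its annotation and its use of strand are not given in the sources used here. The count values deposited are whole reads, not normalized. The FPKM values the authors deposited divide the count by a length set for each gene and by total count, as checked on 8975 genes, and that length can exceed the locus. All columns were used (0 left out).

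Counts were filtered with filterByExpr (minimum count 10, minimum total 15), scaled by TMM and compared in edgeR 4.0.16 (R 4.3.3) by quasi-likelihood, and p-values were adjusted by Benjamini-Hochberg. The limits were an adjusted p of 0.05 with a fold of 2 or 0.5. CPM used TMM-scaled library sizes, and log2 CPM a prior count of 2. Shares have Wilson intervals of 95%. Promoter windows (250 bases before to 50 after the start) came from RefSeq. Alternatives were DESeq2 1.42.0, limma-voom (limma 3.58.1), the edgeR exact test, no TMM, no filter, a mean of at least 1 CPM, log2(FPKM + 1), log2(FPKM + 0.1) each tumor left out and, added after the data were seen, reads per exon base of GENCODE M21. Scripts were tested on simulated data.

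The members and lists were chosen with earlier results of these data known. Named genes were all members, of each pathway list those with an unadjusted p under 0.05 and the 2 with the highest mean CPM, of marker lists the 2 with the highest mean CPM beside a member, and the 5 genes nearest to Hamp, Bmp6 and Tfrc with a mean of at least 1 CPM. Predicted genes were passed over for the latter. Some genes that these rules name are not reported here. Globin, kidney, erythroid and cholangiocyte marker genes, Smad1, Jak2, Usf2's position, and genes not tested or with overlapping or copied sequence were named after their values were seen. Where a symbol had several identifiers, the one with most counts was used.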

Additional observations from a re-analysis of the deposited data

How the results depend on the processing

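Hamp2 had as few as 23 reads in a tumor and the other members at least 75, and what depth and the number of tumors each allow was not tested. No gene passed the limits in the edgeR quasi-likelihood test, whereas lower calls numbered 44 with DESeq2, 35 with the exact test of edgeR and 2 without a filter, and higher calls 10 with DESeq2 and 5 with the exact test. No member passed under any of the 14 alternatives, with adjusted p from 0.558 for Hamp2 upward. With each tumor left out in turn, log2 fold changes crossed 0 for Hamp (−0.041 to 0.92), Id1 (−0.64 to 0.072), Tfrc (−0.11 to 0.45), Slc40a1 (−0.0280 to 0.21) and Fth1 (−0.0277 to 0.35). The difference in Hamp2 share ran from −0.40 to 6.10 percentage points. The list medians ran from −0.069 to 0.055 for BMP and SMAD, −0.063 to 0.091 for uptake and export, −0.057 to 0.041 for iron regulatory proteins, 0.083 to 0.18 for iron-sulfur genes −0.16 to 0.18 for acute-phase genes, −0.36 to −0.20 for IL-6 and STAT3, 0.0076 to 0.13 for heme genes, −0.019 to 0.58 for NRF2 targets and −0.40 to 0.065 for cell cycle genes. The correlation of Bmp6 and Hamp was −0.093 on log2(FPKM + 1). The cause of these changes was not tested. Bola1 was past the limits also without a filter (adjusted p = 0.0337) and on log2(FPKM + 1) (adjusted p = 0.0336 by limma), and with each tumor left out its adjusted p by edgeR was between 0.0993 and 0.477. No paired analysis was possible because the groups share no replicate number.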

Other observations

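The genes in this part were chosen after their values were seen, and their values are given without an explanation. Ncoa4, the receptor that brings ferritin to lysosomes for iron release, split the tumors across genotypes. It was at 6.11 CPM in Prmt3f/f replicate 71 and 8.74 CPM in Prmt3LKO replicate 94, and at 29.5 and 36.8 CPM in Prmt3f/f replicates 7 and 66 and 35.8 and 32.3 CPM in Prmt3LKO replicates 92 and 93. The same 2 tumors were lowest for Osgin1, an NRF2 target that responds to oxidative stress, with 102 and 78.7 CPM against 314 to 512 CPM in the other 4. They were also lowest for Id1 (12.6 and 11.0 CPM) and highest for Ftl1 (1528 and 2138 CPM), Alas2 (54.6 and 55.8 CPM) and Hamp2 (2.46 and 9.49 CPM).

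Prmt3f/f replicate 7 stood at the end of the range for several genes of this set. It was lowest for Hamp, Hamp2, Tfr2, Trf and Tfrc and highest for Fth1. Alas1, which encodes the first enzyme of heme synthesis in hepatocytes, was at 87.5 CPM there and at 224 to 515 CPM in the other 5 tumors. The same tumor was highest for Lcn2, which binds siderophores, with 963 CPM against 243 to 545 CPM, for Socs3, a feedback inhibitor of STAT3, with 28.0 CPM against 9.84 to 17.04 CPM, and for Spp1, osteopontin, with 4072 CPM against 184 to 977 CPM.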
